A study of Capra hircus with 9 samples.

Results

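The miR-148 and miR-152 family was described in the submandibular gland, a paired salivary gland, of 9 healthy female Lubo goats. Members were all entries of the deposited miRNA count table whose number directly after miR- is that of miR-148 or miR-152, which gave 8 of 2189 entries. The main members were chi-miR-148a-3p and chi-miR-148a-5p, the mature strands from the opposite arms of the miR-148a hairpin. The groups were 3 goats aged 1 month, 3 aged 12 months and 3 aged 24 months, kept under the same conditions with no treatment named in the labels, each giving a single small RNA library. Libraries are named by age and replicate number, so that 1-month 2 is the goat numbered 2 at 1 month. Each library holds RNA of whole gland tissue, in which fewer cells of a type and less RNA per cell cannot be told apart.

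miRNAs are short RNAs that guide silencing proteins to messenger RNAs, mainly through the seed, bases 2 to 8 from the 5′ end. A hairpin precursor is cut into a 5p and a 3p strand, and usually a single strand is loaded and kept while its partner is degraded. The miR-148a, miR-148b and miR-152 hairpins come from separate genes, and their 3p strands are the abundant products. Family members are known to repress the DNA methyltransferase DNMT1, and miR-148a is known as an abundant miRNA of secretory epithelia such as exocrine pancreas and lactating mammary gland, which is the sense of "secretory" for this family. In the RefSeq goat annotation (assembly ARS1.2), MIR148A lies within the span of LOC108635844, and MIR148B lies within the span of COPZ1, a coat protein gene, with GPR84 and NFE2 as the neighbouring genes. Names that start with chi- are goat miRNAs. In this family, names without it are of other species, and the endings -x and -y stand beside the 5p and the 3p arms.

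Shared seeds define which entries could be read as a single family of regulators. All 8 sequences are therefore shown as the deposited table holds them, 5′ to 3′ with T for U and the seed in capitals.
chi-miR-148a-3p: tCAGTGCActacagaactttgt
chi-miR-148b-3p: tCAGTGCAtcacagaactttgt
miR-148-y: tCAGTGCAtgacagaacttggt
miR-152-y: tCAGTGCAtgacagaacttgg
chi-miR-148a-5p: aAAGTTCTgagacactccgact
chi-miR-148b-5p: gAAGTTCTgttatacactcaggc
miR-148-x: aAACTTCTgacacactccgact
miR-152-x: aGGTTCTGtgatacactccgcct
The seed CAGTGCA stood in the first 4 of these entries and in 0 entries outside the family. The seed AAGTTCT was shared by chi-miR-148a-5p and chi-miR-148b-5p, again with 0 entries outside the family. The remaining 5p entries each had a seed of their own, AACTTCT in miR-148-x and GGTTCTG in miR-152-x.

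Positions in the following comparisons count from 1 at the 5′ end of the entry named first. chi-miR-148a-3p and chi-miR-148b-3p shared 20 of 22 bases and differed by C9T and T10C, just past the seed. miR-148-y differed from chi-miR-148a-3p by C9T, T10G and T20G, and from chi-miR-148b-3p by C10G and T20G. Against miR-152-y, miR-148-y had 0 differences over 21 bases and ran on by 1 T. By sequence, miR-148-y is thus the miR-152-y entry with 1 more base, despite its name, and the 2 entries are called the miR-152 forms below. miR-148-x differed from chi-miR-148a-5p by G4C, within the seed, and G11C. How the authors' counting assigned reads between such close entries is not given in the sources used here, so the values of near-identical members are uncertain to that degree.

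Library totals ran from 8288492 to 13277448 counts. The 1-month libraries differed from the later ones in markers of cell types. Leukocyte miRNAs (miR-142, miR-150, miR-155, miR-223, miR-146 and miR-342) held 3.73% of counts in 1-month 1, 12.7% in 1-month 2 and 5.78% in 1-month 3, against 0.477% to 0.712% in the 6 later libraries. Epithelial miRNAs (miR-200, miR-141, miR-429, miR-203 and miR-205) held 5.31%, 0.797% and 3.63% in the same order, against 9.74% to 11.2% later. Within that list, miR-200, miR-141 and miR-429 alone held 4.66%, 0.365% and 3.23%, against 9.17% to 10.6% later. Mesenchymal miRNAs (miR-143, miR-145, miR-199 and miR-214) held 1.66% in 1-month 2 and 6.51% to 13.6% in the other 8. Skeletal muscle, red cell and endothelial miRNAs held at most 0.247%, 0.403% and 1.45% of any library. The skeletal muscle value of 0.247% was that of 12-month 4, against 0.0155% to 0.0611% in the other 8. Library 1-month 2 therefore stood apart in the leukocyte, epithelial and mesenchymal lists. It was also lowest for endothelial miRNAs, at 0.441% against 0.693% to 1.45% in the other 8. The differences from 1 month are given with and without that library. The part of these cell types in the family's differences was not tested.

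chi-miR-148a-3p made up most of the family at every age and was the most abundant entry of the whole table in all 6 later libraries. At 1 month it ranked 2 in 1-month 1, 42 in 1-month 2 and 3 in 1-month 3. Its level, in CPM (counts relative to the library total, scaled by TMM factors), was 60339 in 1-month 1, 4430.3 in 1-month 2 and 42094 in 1-month 3. At 12 months it was 126300.2, 130822 and 147662 in libraries 3, 4 and 5, and at 24 months it was 145715, 147159 and 152249 in libraries 2, 3 and 5. All 6 later goats lay above all 3 young ones, whereas the 12-month and 24-month ranges overlapped. The mean (± SD, n = 3 goats) was 35621 ± 28511 CPM in the youngest group, 134928 ± 11257 at 12 months and 148375 ± 3432 at 24 months.

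The level of chi-miR-148a-3p rose between 1 and 24 months, with a log2 fold change of 2.06 (SE 0.68, adjusted p = 0.0454 with edgeR's quasi-likelihood test over 937 entries). Between 1 and 12 months the log2 fold change was 1.92 (SE 0.67) and did not pass the 0.05 threshold (edgeR adjusted p = 0.0626). From 12 to 24 months it was 0.14 (SE 0.65, edgeR adjusted p = 0.998). The young goats were widely spread, and 1-month 2 lay 11.6-fold below the mean of the other 2. Without 1-month 2, the log2 fold changes were smaller and passed with edgeR, at 1.38 (adjusted p = 0.00123) for 12 months and 1.51 (adjusted p = 0.000754) for 24 months. Without 1-month 1, they were 2.50 (edgeR adjusted p = 0.0441) and 2.65 (edgeR adjusted p = 0.0331). The 24-month call was lost without 1-month 3 or any of the 6 later libraries in turn, at edgeR adjusted p from 0.0592 to 0.145, and with library size alone in place of TMM factors (1.71, edgeR adjusted p = 0.0981).

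**Figure D1:**
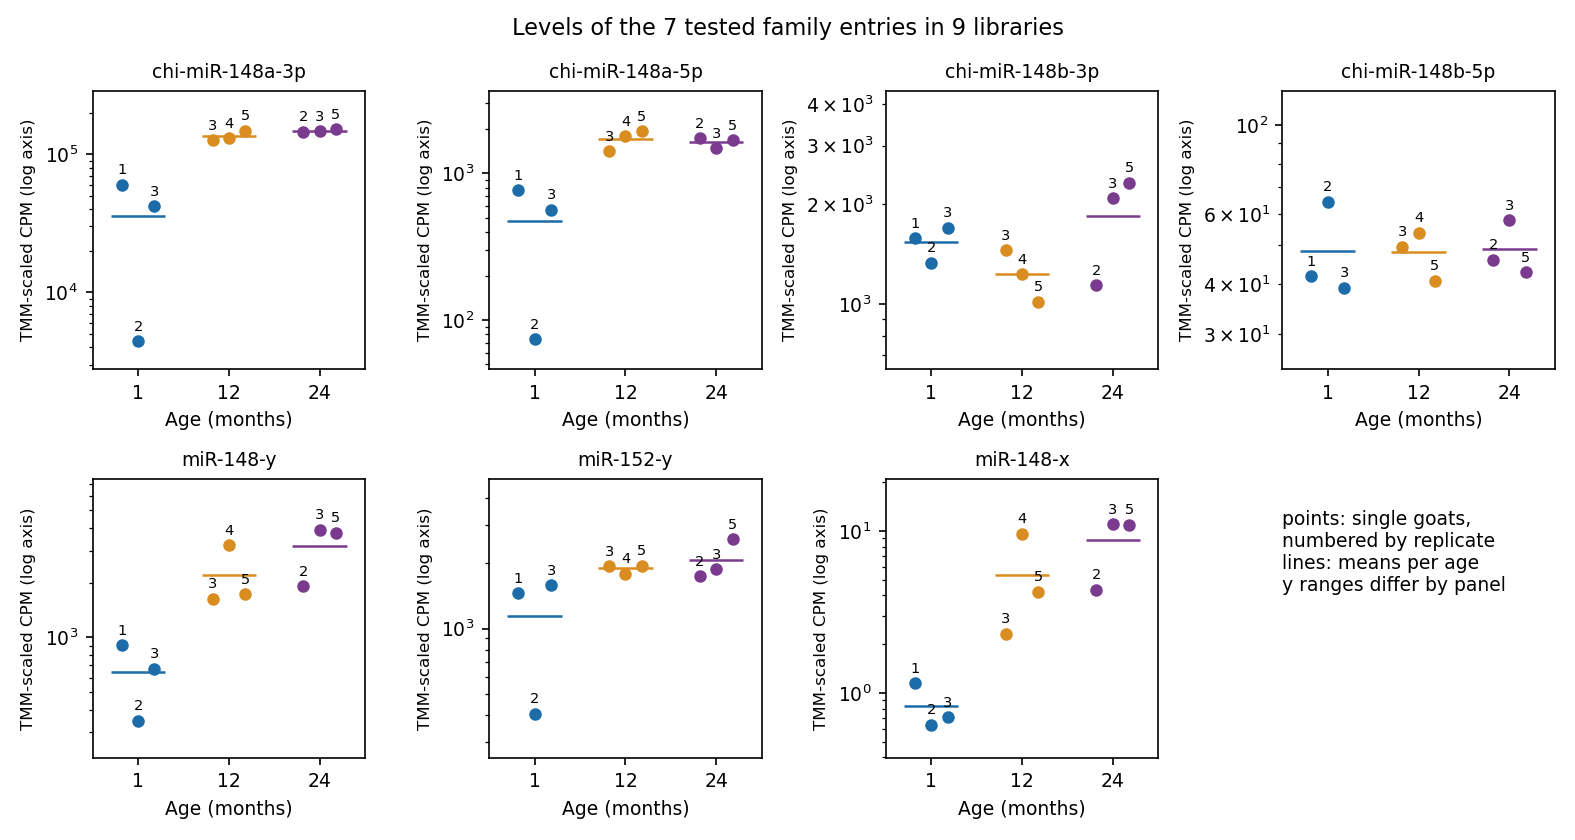
Level of each of the 7 tested family entries in each goat, in TMM-scaled CPM on log axes whose ranges differ by panel, against age in months, with points numbered by replicate and lines at the means per age. The 3 young goats lie below all later ones for chi-miR-148a-3p, chi-miR-148a-5p, miR-148-y, miR-152-y and miR-148-x, and overlap them for chi-miR-148b-3p and chi-miR-148b-5p.

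chi-miR-148a-5p, the partner strand, followed the 3p strand at a lower level. It stood at 769 CPM in 1-month 1, 74.0 in 1-month 2 and 567 in 1-month 3 on the TMM scale. Later levels were 1413, 1794 and 1931 CPM at 12 months and 1733, 1482 and 1682 CPM at 24 months. The young goats again lay below all later ones, with the 12-month and 24-month goats intermixed. The log2 fold changes from 1 month were 1.86 (SE 0.64, edgeR adjusted p = 0.0607) at 12 months and 1.80 (SE 0.64, edgeR adjusted p = 0.0536) at 24 months, neither past the threshold. Without 1-month 2, both passed with edgeR, at 1.34 (adjusted p = 0.00399) and 1.27 (adjusted p = 0.00481), and without 1-month 1 at 2.39 (adjusted p = 0.0437) and 2.32 (adjusted p = 0.0401). Without any other library they did not pass, at edgeR adjusted p from 0.0982 to 0.269 for 12 months and from 0.0743 to 0.177 for 24 months. With all 9 libraries, both passed with DESeq2 (1.82, adjusted p = 0.0181, and 1.80, adjusted p = 0.0154) and with voom (2.42, adjusted p = 0.0380, and 2.35, adjusted p = 0.0354). Neither passed with library size alone (edgeR adjusted p = 0.119 and 0.128) or with same-sequence entries merged (1.49 and 1.58). Nor did they with only the libraries of both ages (edgeR adjusted p = 0.183 and 0.119). The replicate number as a block gave edgeR adjusted p = 0.238 and 0.0735. Of 18 alternative fits, 5 passed at 12 months and 7 at 24 months.

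The ratio of the 3p to the 5p strand of miR-148a varied little while the level of each strand varied greatly. It was 78.4, 59.9 and 74.2 in the 1-month libraries, 89.4, 72.9 and 76.5 in the 12-month libraries and 84.1, 99.3 and 90.5 in the 24-month libraries. All 24-month libraries lay above all 1-month ones, and the 12-month libraries overlapped both. The ratio thus spanned 1.66-fold over 9 goats, against 34.4-fold for the level of the 3p strand and 26.1-fold for that of the 5p strand. Its standard deviation on the log2 scale was 0.22, below the median of 0.54 over the 124 goat hairpins with both strands tested, 4 of which had a smaller one. The hairpins were not matched for counts, and counting error widens the ratio of rarer strands. chi-miR-148a-5p had at least 930 counts in every library. The log2 level of the 3p strand, by contrast, had a standard deviation of 1.68 over the 9 libraries, and 5 of the 124 hairpins had a larger one, with a median of 0.64. Differences in the log2 ratio were 0.17 (SE 0.26, limma adjusted p = 0.773) at 12 months against 1 month, 0.37 (SE 0.26, limma adjusted p = 0.463) at 24 months against 1 month, and 0.20 (SE 0.26, limma adjusted p = 0.996) between the later ages. Without 1-month 2, those from 1 month were 0.056 (limma adjusted p = 0.950) and 0.26 (limma adjusted p = 0.701). Of the 124 hairpins, 0% passed at 12 months against 1 month, 0.806% at 24 months against 1 month and 0% between the later ages, and neither family hairpin was among them.

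**Figure D2:**
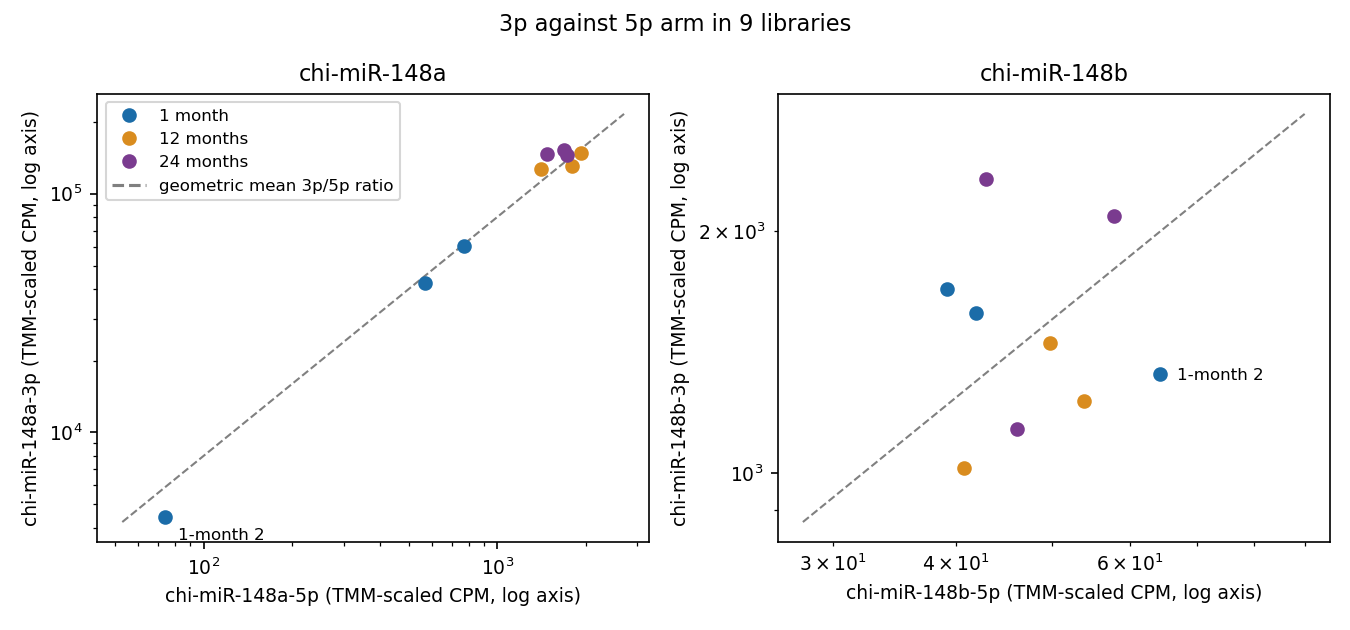
Level of the 3p strand against the 5p strand of chi-miR-148a and chi-miR-148b, both in TMM-scaled CPM on log axes, with 1 point per goat coloured by age and a dashed line at the geometric mean of the ratio. The 9 goats lie along the line for chi-miR-148a, over 34.4-fold in the 3p strand, and form no line for chi-miR-148b.

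miR-148b, the closest relative of miR-148a, showed no such age pattern. Levels of chi-miR-148b-3p were 1580.2, 1330.3 and 1695 CPM at 1 month, 1449.9, 1229.6 and 1014 CPM at 12 months, and 1136, 2086 and 2318 CPM at 24 months (TMM-scaled). The 3 ages overlapped, and the widest spread was among the 24-month goats. Its log2 fold changes were -0.32 (SE 0.35, edgeR adjusted p = 0.510) at 12 months, 0.27 (SE 0.35, edgeR adjusted p = 0.601) at 24 months against 1 month, and 0.58 (SE 0.35, edgeR adjusted p = 0.998) between the later ages. The sign of the 24-month value turned with library size alone (-0.020) and without 24-month 5 (-0.10). Without 1-month 2, the values from 1 month were -0.44 (edgeR adjusted p = 0.311) and 0.15 (edgeR adjusted p = 0.725). In 1-month 2 its level lay 1.23-fold below the mean of the other young goats, a small gap beside that of chi-miR-148a-3p.

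chi-miR-148b-5p ran between 39.2 CPM in 1-month 3 and 64.3 CPM in 1-month 2, with the later goats at 40.8 to 57.8 CPM. Library 1-month 2 was thus the highest of the 9 for this strand and 1.59-fold above the mean of the other young goats. Mean levels were 48.4 ± 13.8, 48.1 ± 6.69 and 48.9 ± 7.86 CPM at the 3 ages (SD, n = 3 each). The log2 fold changes against 1 month were -0.0098 and 0.013 (SE 0.35 each, edgeR adjusted p = 0.985 and 0.984), and their signs depended on the scaling. Without 1-month 2 they were 0.22 (edgeR adjusted p = 0.545) and 0.25 (edgeR adjusted p = 0.493). The 3p to 5p ratio of miR-148b was 20.7 to 43.2 in the young goats, 22.8 to 29.2 at 12 months and 24.7 to 54.1 at 24 months, without a difference that passed with limma (adjusted p = 0.670, 0.857 and 0.996 for 12 against 1, 24 against 1 and 24 against 12 months). Without 1-month 2, its log2 differences from 1 month were -0.67 (limma adjusted p = 0.505) and -0.15 (limma adjusted p = 0.897), the second turned in sign from 0.17.

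Among the miR-152 forms, the longer entry, miR-148-y, was higher at both later ages. Its level was 907, 347 and 671 CPM in the 1-month libraries, 1634, 3209 and 1725 CPM in the 12-month libraries and 1913, 3913 and 3755 CPM in the 24-month libraries. No young goat reached any later goat, and 12-month 4, 24-month 3 and 24-month 5 stood above the other later goats. The level rose at 12 months, with a log2 fold change of 1.77 (SE 0.47, edgeR adjusted p = 0.0250), and at 24 months against 1 month, with 2.32 (SE 0.48, edgeR adjusted p = 0.00779). The 24-month call held in all 18 alternative fits (adjusted p up to 0.0441), and the 12-month call in 8 of 18. The 12-month call was lost without any 1 of the 6 later libraries (edgeR adjusted p from 0.0635 to 0.0997) and with library size alone (1.55, edgeR adjusted p = 0.0543). Without 1-month 2 both calls held, at 1.45 (edgeR adjusted p = 0.0321) and 1.997 (edgeR adjusted p = 0.00829).

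miR-152-y, the shorter form, stood at 1456, 405 and 1582 CPM at 1 month, 1941, 1795 and 1955 CPM at 12 months, and 1745, 1886 and 2582 CPM at 24 months. On this scale the young goats lay below all later ones, with 1-month 1 and 1-month 3 close below. Relative to library size alone they overlapped, with 1-month 3 at 1926 CPM against 1805 to 1889 CPM at 12 months and 1675 to 2292 CPM at 24 months. Its log2 fold changes were 0.73 (SE 0.46, edgeR adjusted p = 0.259) and 0.85 (SE 0.46, edgeR adjusted p = 0.183) against 1 month, and neither passed. Without 1-month 2, they were 0.30 (edgeR adjusted p = 0.351) and 0.42 (edgeR adjusted p = 0.184). When both miR-152 forms were summed to a single entry, an alternative added after seeing the data, the log2 fold change was 1.18 (SE 0.45, edgeR adjusted p = 0.0770) at 12 months and 1.55 (SE 0.45, edgeR adjusted p = 0.0306) at 24 months.

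The ratio of the longer to the shorter miR-152 form was 0.623, 0.859 and 0.424 in the young goats, 0.842, 1.79 and 0.882 at 12 months and 1.10, 2.08 and 1.45 at 24 months. The longer form thus prevailed in every 24-month goat and in 12-month 4, and the shorter in the other 5 goats. On the log2 scale the ratio was higher by 0.85 (SE 0.40, limma adjusted p = 0.301) at 12 months and by 1.29 (SE 0.40, limma adjusted p = 0.132) at 24 months against 1 month, and by 0.44 (SE 0.40, limma adjusted p = 0.926) between the later ages. None of these passed, nor did the values from 1 month without 1-month 2, at 1.10 (limma adjusted p = 0.210) and 1.54 (limma adjusted p = 0.0755). Over the 111 pairs of such forms in the table, 5.41% passed at 12 months, 6.31% at 24 months against 1 month and 0% between the later ages.

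Other pairs of longer and shorter forms moved in the same libraries. Of the other 110 pairs, 69.1% were above their own mean ratio in 12-month 4, 70.9% in 24-month 3 and 64.5% in 24-month 5, the 3 libraries in which miR-148-y was highest. The lowest share was 19.1%, in 1-month 3, where the ratio of the miR-152 forms was also lowest. Pairs can share an entry, so they are not independent, and the part of this common shift in the values of miR-148-y was not tested.

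**Figure D3:**
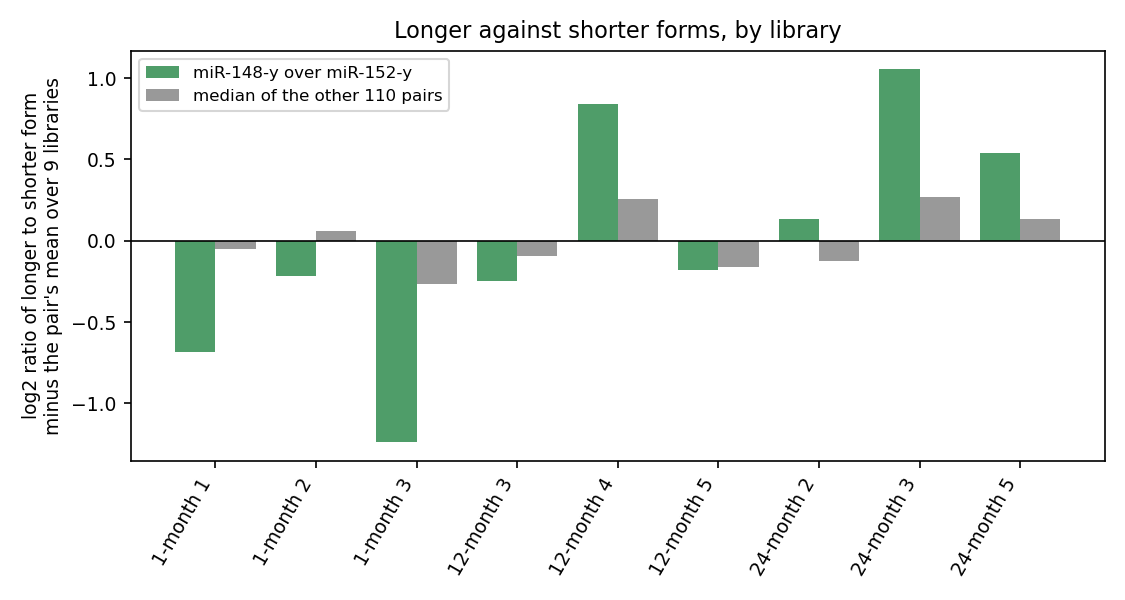
Log2 ratio of longer to shorter form in each library, as the deviation from the mean over the 9 libraries, for miR-148-y over miR-152-y and as the median of the other 110 pairs. Both are highest in 24-month 3 and 12-month 4 and lowest in 1-month 3, and the family pair ranges wider.

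miR-148-x, a rare 5p entry with 8 to 97 counts per library, was the lowest of the tested members. Levels were 1.15, 0.636 and 0.706 CPM at 1 month, 2.32, 9.60 and 4.22 CPM at 12 months, and 4.34, 11.0 and 10.9 CPM at 24 months. The young goats lay below all later ones, and the highest later goats were again 12-month 4, 24-month 3 and 24-month 5. The level was higher at 12 months, with a log2 fold change of 2.68 (SE 0.65, edgeR adjusted p = 0.0171), and at 24 months against 1 month, with 3.38 (SE 0.66, edgeR adjusted p = 0.00651). At 1 month its unscaled 1.35, 0.603 and 0.860 CPM would not have passed the filter on low counts. It was thus tested only through the later ages, where it is high, and these calls are not independent of that selection. The 12-month call was lost without 12-month 4 (1.98, edgeR adjusted p = 0.0786) or 12-month 5 (2.41, edgeR adjusted p = 0.0523). Without 1-month 2 both calls held, at 2.51 (edgeR adjusted p = 0.0329) and 3.21 (edgeR adjusted p = 0.0122).

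Set against chi-miR-148a-5p, from which it differs by 2 bases, miR-148-x amounted to 0.124% to 0.860% of the counts of that strand. The highest of these shares was in 1-month 2, where it rested on 8 counts, and the ages overlapped in all 3 comparisons (exact two-sided permutation p = 1 at 12 against 1 month, 0.4 at 24 against 1 month and 0.2 between the later ages). The overlap with 1 month rested on 1-month 2. Without it the later goats lay above both young ones, at log2 differences of 0.90 and 1.76 in place of -0.0050 and 0.86 (exact permutation p = 0.2 each, the smallest that 2 against 3 can give). miR-152-x had 20 counts in all: 7 in 1-month 3, 2 in 12-month 3, 6 in 12-month 5, 5 in 24-month 5 and 0 in the other 5 libraries. It did not pass the filter on low counts and was not tested. In the libraries at 0, the depth allows up to 0.226 to 0.337 CPM (3 counts, counting error only).

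Over the family, 7 of the 8 entries were tested. At 12 months against 1 month, 2 of 7 were called, both higher, where 19.2% of all 937 entries were called and 5.98% were called higher. At 24 months against 1 month, 3 of 7 were called, all higher, where 26.3% of all entries were called and 8.75% were called higher. Between 12 and 24 months, 0 of 7 were called with edgeR, where 0% of all entries were called. In that comparison 0 family members and 40 of 937 entries had an unadjusted p under 0.05, and DESeq2 and voom called 0 of 937. Any difference between the 3 ages was called for 2 of 7, miR-148-y (edgeR adjusted p = 0.0152) and miR-148-x (edgeR adjusted p = 0.0121), where 20.5% of all entries were called. The filter kept members that were high at any age, so these counts describe the tested members and not all 8. miR-148-x, called in both comparisons with 1 month and for any difference, passed the filter only through the later ages. Its place in these counts, and in the overlaps and medians below, is therefore not independent of its being high there.

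Levels did not overlap between 1 and 12 months in 5 of 7 members, and in 48.5% of all entries. Between 1 and 24 months they did not overlap in 5 of 7, and in 47.2% of all entries. Between 12 and 24 months 0 of 7 were apart, and 9.82% of all entries. With library size alone, an alternative added after seeing the data, miR-152-y overlapped, which left 4 of 7 apart between 1 and 12 months (46.1% of all entries) and 4 of 7 between 1 and 24 months (46% of all entries). The median log2 fold change of the 7 was 1.77 at 12 months and 1.80 at 24 months against 1 month, beside -0.017 and -0.065 over all entries. Scaling by library size alone moved the all-entry medians to -0.20 and -0.36, and the entries called higher to 26 of 181 and 46 of 239 called, from 56 of 180 and 82 of 246 with TMM factors. The family counts under that scaling were 1 and 2 of 7.

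**Figure D4:**
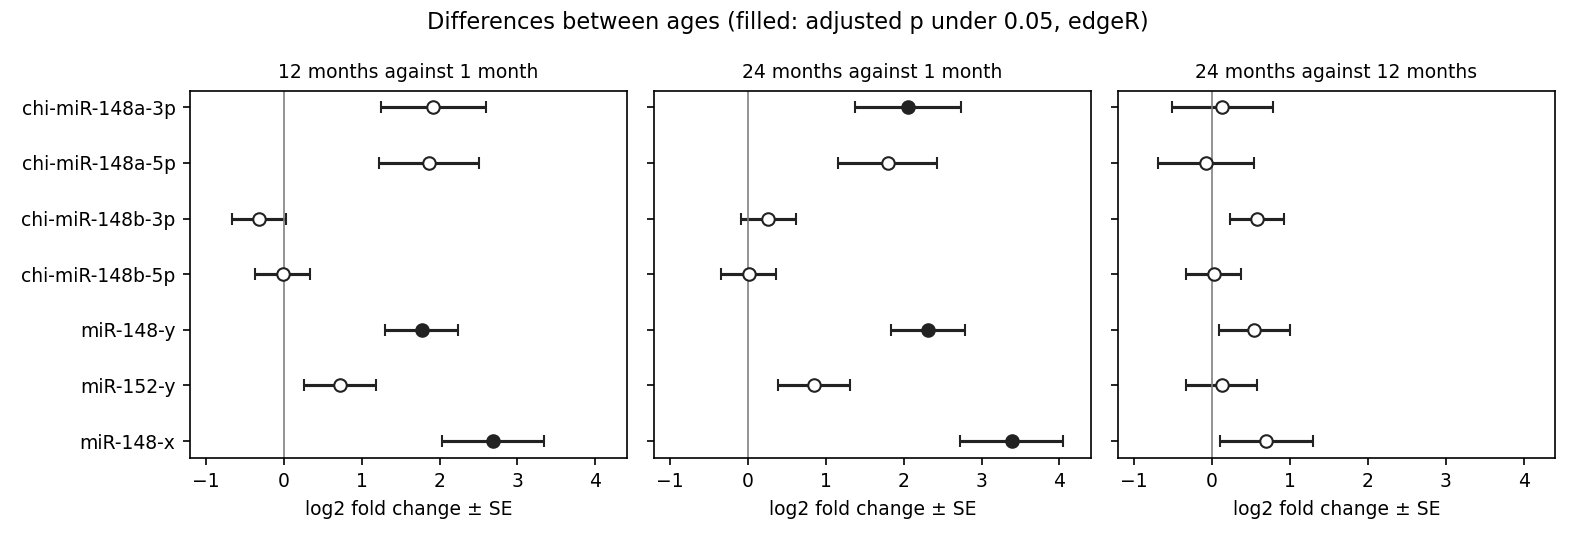
Log2 fold change with its standard error for the 7 tested entries in each of 3 comparisons between ages, from the fit over 9 libraries, with filled points at adjusted p under 0.05. Filled points are miR-148-y and miR-148-x at 12 months against 1 month, and these with chi-miR-148a-3p at 24 months against 1 month.

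Summed over all 8 entries, the family held 7.69%, 0.630% and 5.68% of all counts in the 1-month libraries. It held 12.4%, 14.6% and 14.2% in the 12-month libraries and 14.6%, 14.8% and 14.4% in the 24-month libraries. The Wilson 95% interval, which covers counting error only, was 0.625% to 0.634% in 1-month 2 and 14.4% to 14.5% in 24-month 5, far narrower than the spread between goats. Mean shares were 4.67% ± 3.64, 13.8% ± 1.16 and 14.6% ± 0.177 (SD, n = 3 each), so the spread between goats was smallest at 24 months. The share was higher by 9.10 percentage points at 12 months and by 9.95 at 24 months against 1 month, with no overlap (exact two-sided permutation p = 0.1 each, the smallest that 3 against 3 can give, and 0.15 adjusted over 12 share tests). Between the later ages it differed by 0.846 points (exact permutation p = 0.3, adjusted 0.327). Without 1-month 2, the gap from 1 month was 7.09 points at 12 months and 7.93 at 24 months.

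The make-up of the family shifted as well. chi-miR-148a-3p supplied 92.7%, 66.6% and 90.2% of family counts in the young goats and 93.6% to 95.7% in the later ones. chi-miR-148b-3p supplied 20.0% of family counts in 1-month 2, 2.43% and 3.63% in the other young goats and 0.657% to 1.43% later. Library 1-month 2 was thus the only one of 9 in which more than 10% of family counts came from a member other than chi-miR-148a-3p.

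**Figure D5:**
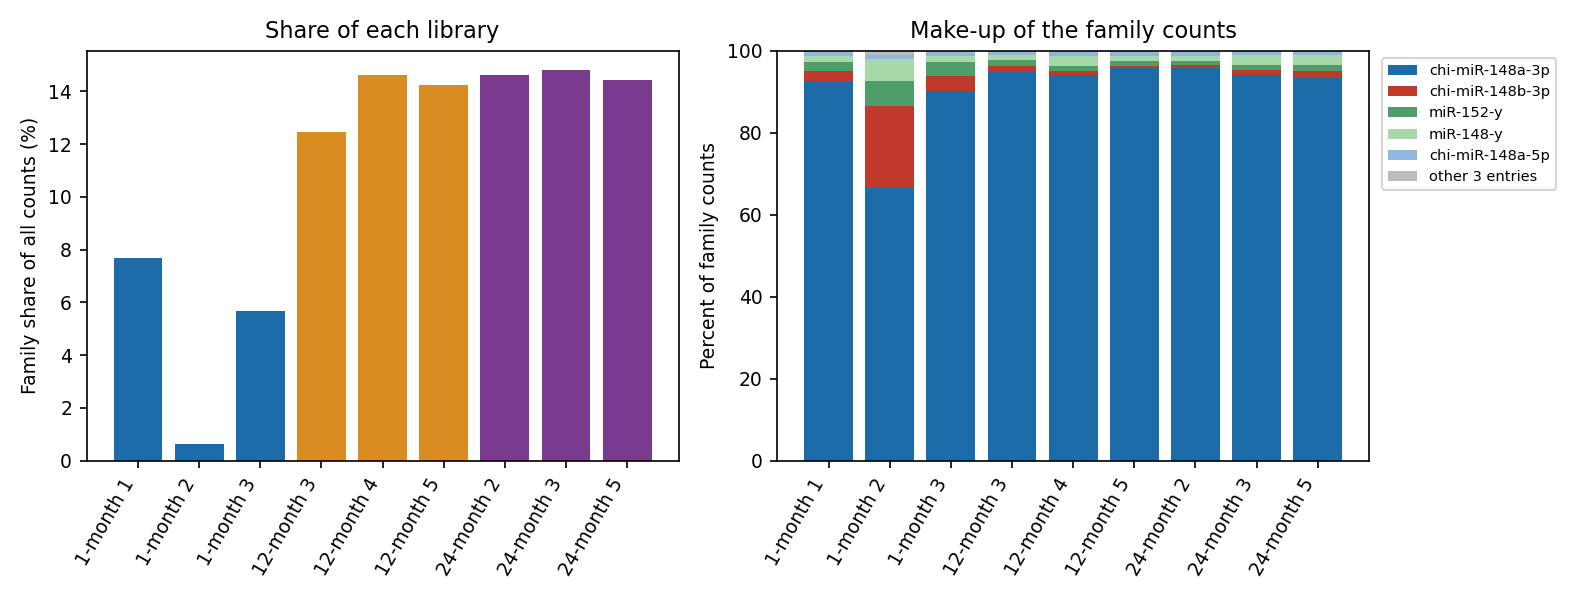
Left, the summed share of all counts held by the 8 family entries in each library, in percent, coloured by age. Right, the percent of family counts by entry, where chi-miR-148a-3p fills 66.6% of 1-month 2 and at least 90.2% of each other library.

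Ratios within a library, which need no scaling between libraries, compare the members that share the CAGTGCA seed. The ratios between members were chosen after seeing the data. The counts of chi-miR-148a-3p were 38.2, 3.33 and 24.8 times those of chi-miR-148b-3p in the young goats, 87.1, 106 and 145.6 times at 12 months and 128, 70.5 and 65.7 times at 24 months. All later goats lay above all young ones, at log2 differences of 2.91 and 2.52 from 1 month (exact permutation p = 0.1 each, adjusted 0.24 over 12 ratio tests). Without 1-month 2, these were 1.84 and 1.45 (exact permutation p = 0.2 each, the smallest that 2 against 3 can give). The ratio of these closely related members was thus higher in the later goats, in a design too small to pass 0.05. Each goat was sampled at a single age, so this is a difference between groups of goats.

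The miR-152 forms, summed, were 1.50, 0.565 and 1.33 times chi-miR-148b-3p in the young goats, 2.47, 4.07 and 3.63 times at 12 months and 3.22, 2.78 and 2.73 times at 24 months. The later ages did not overlap 1 month here either (log2 differences of 1.67 and 1.48, exact permutation p = 0.1 each, adjusted 0.24), and without 1-month 2 these were 1.23 and 1.04. chi-miR-148a-3p over the summed miR-152 forms was 25.5, 5.89 and 18.7 in the young goats, 35.3, 26.1 and 40.1 in the 12-month goats and 39.8, 25.4 and 24.0 in the 24-month goats. That ratio did not overlap between 1 and 12 months (exact permutation p = 0.1, adjusted 0.24) and overlapped between 1 and 24 months (exact permutation p = 0.3, adjusted 0.45). Without 1-month 2 its log2 differences were 0.61 and 0.41, against 1.24 and 1.04 with it.

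The entries outside the family whose level over the 9 libraries was most like that of chi-miR-148a-3p were chosen by Pearson's r of log2(CPM + 1) among 225 named entries with a mean of at least 100 CPM. They were chi-miR-200a (r = 0.9995), miR-200-z (0.998), chi-miR-200b (0.997), chi-miR-30a-5p (0.996) and miR-200-y (0.994). The miR-200 family is known for epithelial cells, where it represses the ZEB factors. Without 1-month 2 the same entries had r of 0.998, 0.991, 0.979, 0.976 and 0.963. All points share the library, its scaling and its make-up of cells, so these values are a description over 9 libraries. chi-miR-200a stood at 14882, 1004 and 10746 CPM in the young goats and between 31621 and 36532 CPM later, and its log2 fold changes were 1.89 (SE 0.69, edgeR adjusted p = 0.0695) and 2.03 (SE 0.69, edgeR adjusted p = 0.0506).

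Within the family, likeness to chi-miR-148a-3p by the same measure was 0.996 for chi-miR-148a-5p, 0.959 for miR-152-y, 0.875 for miR-148-y, 0.721 for miR-148-x, 0.083 for chi-miR-148b-3p and -0.433 for chi-miR-148b-5p. Leaving out 1-month 2 lowered miR-152-y to 0.699, raised miR-148-x to 0.828 and left miR-148-y at 0.864 and chi-miR-148a-5p at 0.977. It turned the sign for both chi-miR-148b strands, to -0.144 for chi-miR-148b-3p and 0.534 for chi-miR-148b-5p.

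Other lists give the setting of these values, beside all 937 entries, of which 5.98% were called higher and 13.2% lower at 12 months, and 8.75% higher and 17.5% lower at 24 months against 1 month. Of the 11 tested entries of miR-200, miR-141 and miR-429, part of the epithelial list, 5 rose at 12 months and 6 at 24 months against 1 month, and 0 fell (median log2 fold changes 2.05 and 2.27). With miR-203 and miR-205 added, 14 entries were tested and no further entry was called (median log2 fold changes 1.99 and 2.05). miR-29, which is also known to target DNA methyltransferases, had 5 of 7 tested entries higher at either later age and 0 lower, with chi-miR-29a-3p at 1.72 (SE 0.31, edgeR adjusted p = 0.00473) and 1.80 (SE 0.31, edgeR adjusted p = 0.00341). Among the other gland miRNAs (miR-375, miR-7, miR-216 and miR-217), 1 of 5 rose and 1 fell at 12 months, and 1 rose and 0 fell at 24 months against 1 month. Their most abundant entry, miR-375-y, of a miRNA known from endocrine and exocrine glands, rose by 1.46 (SE 0.30, edgeR adjusted p = 0.00779) and 1.93 (SE 0.30, edgeR adjusted p = 0.00220). The median of that list was nevertheless -1.08 and -0.76. Leukocyte entries fell in 12 of 16 at 12 months and 14 of 16 at 24 months, with medians of -3.52 and -2.95. No entry of these lists was called between 12 and 24 months with edgeR.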

How the data were processed

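The authors deposited a table of unscaled read counts per mature miRNA entry, per the file headers, with the sequence of each entry. Bowtie and FastQC are named without roles, per the submitters' processing notes. The mismatch rule, miRNA database and genome build were not given in the sources used here. Total RNA was extracted with TRIzol, per the labels' protocols.

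The members and lists were chosen with earlier results of these data known. Every family entry was named. Entries passing edgeR's filterByExpr (minimum count 10, minimum total 15) numbered 937 and held at least 99.9% of each library's counts. edgeR 4.0.16 in R 4.3.3 fitted all 9 libraries with TMM factors and its robust quasi-likelihood F test, leaving 6 degrees of freedom for the spread (coefficient of variation between goats 0.534), with p-values adjusted by Benjamini and Hochberg over all tested entries at 0.05. limma 3.58.1 fitted log2 ratios of counts plus 1. The planned ratio of end forms of chi-miR-148a-3p was fitted to the miR-152 forms, the family's pair of that kind. Shares and member ratios were compared with exact permutation tests. The analysis code was tested on simulated data. DESeq2 1.42.0 and voom were alternatives.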

Additional observations from a re-analysis of the deposited data

How the results depend on the processing

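Of 662 alternative values over 52 results, 24 lost a call, 18 gained one and 32 turned in sign. Another 22 were counts that moved by over 1.5 times. The other 566 kept direction and call or were counts that moved by at most 1.5 times. Those counts include all alternatives for members called at 24 months against 1 month, none of which equalled the reported 3. They also include the counts of members not overlapping 1 month, which went from 5 to 4 with library size alone. The number of family members called at 12 months against 1 month (2 as reported) was 1 with library size alone, 4 with DESeq2, 4 with voom, 4 without the filter, 1 with only the libraries of both ages, 1 with same-sequence entries merged, and 0 to 4 when leaving out a library: 4 without 1-month 1 or 1-month 2, 1 without 12-month 3 or any 24-month library, and 0 without 12-month 4 or 12-month 5. For any difference between the ages (2 as reported) it was 4 with DESeq2, 4 with voom, 4 without the filter and 1 to 4 when leaving out a library, with 4 without 1-month 2 and 1 without 24-month 3 or 24-month 5. At 24 months against 1 month (3 as reported) it was either 2 or 4 of 7 in every alternative. It was 4 with upper quartile factors, DESeq2 size factors, DESeq2, voom, without the filter, and without 1-month 1 or 1-month 2. In all others it was 2. These counts were not made for fits that sum entries, since the entries differ.

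The log2 fold change of chi-miR-148a-3p at 12 months passed at 1.88 with DESeq2 (adjusted p = 0.0205), 2.59 with voom (0.0376) and 1.70 without the filter (edgeR 0.00647), and ran from 1.38 to 2.50 when leaving out a library. Its 24-month call was lost at 1.71 with library size alone, 1.94 with only the libraries of both ages (edgeR adjusted p = 0.103) and 1.84 with same-sequence entries merged (edgeR 0.0815), and it ran from 1.51 to 2.65 when leaving out a library.

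Signs that turned all belonged to differences that did not pass. chi-miR-148b-3p at 24 months against 1 month was -0.020 with library size alone and -0.10 to 0.37 when leaving out a library. chi-miR-148b-5p at 12 months was 0.13 with upper quartile factors, 0.017 with voom and -0.34 to 0.22 when leaving out a library. Between the later ages it was -0.042 with library size alone and -0.013 without the filter. At 24 months against 1 month it was -0.21 with library size alone, -0.047 with DESeq2 size factors, -0.047 with DESeq2, -0.24 without the filter, -0.058 with only the libraries of both ages, -0.13 with same-sequence entries merged and -0.21 to 0.25 when leaving out a library. Between the later ages chi-miR-148a-5p was 0.10 with same-sequence entries merged and -0.067 to 0.28 when leaving out a library. The 3p to 5p ratio of miR-148b at 24 months was -0.15 to 0.45, and miR-148-x over chi-miR-148a-5p at 12 months -0.51 to 0.90, when leaving out a library. All ratios between members, with their values when leaving out a library, and the sum of the miR-152 forms were chosen after seeing the data. The cause of these shifts was not tested.

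Replicate numbers belong to different goats and were not treated as pairs. Same-numbered libraries had correlations of deviations from -0.212 to 0.178 over 937 entries. These were not set against differently numbered libraries, so a factor shared by number was not tested. With the replicate number as a block, 0 members were called at 12 months, 0 for any difference and 2 at 24 months against 1 month. In that replicate block fit chi-miR-148a-3p was at 2.55 (edgeR adjusted p = 0.196) and 3.15 (edgeR adjusted p = 0.0467) against 1 month, chi-miR-148a-5p was at 0.40 between the later ages, and chi-miR-148b-5p at 0.029 at 12 months. The block also ended the calls of miR-148-x, at 1.59 (edgeR adjusted p = 0.429) and 3.29 (edgeR adjusted p = 0.0537) against 1 month, and the 12-month call of miR-148-y (1.30, edgeR adjusted p = 0.321). Depth limited miR-148-x and miR-152-x alone, since each other member had at least 372 counts in every library.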
